A study of Danio rerio with 9 samples.

Results

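Polycomb genes encode the subunits of 2 repressor complexes, and 9 of them were described here among the 27158 genes measured in thyroid tumors of transgenic zebrafish. The genes were taken by name as ezh1, ezh2, eed, suz12a, suz12b, jarid2b, phf1, rnf2 and bmi1a, and each matched 1 protein-coding gene. RNA sequencing covered 4 CCDC6-RET tumors (tumors 2, 3, 5 and 6), in which the zebrafish thyroglobulin promoter drove a human fusion of the RET kinase. It covered 5 BRAF(V600E) tumors (tumors 1, 2, 3, 6 and 7), in which the same promoter drove an activated form of the kinase BRAF. The promoter acts in thyroid follicle cells, so fish genes were read in bulk tumor tissue where only some cells carried an active transgene. The CCDC6-RET construct was injected into embryos of a tg:TdTomato reporter line, and the BRAF(V600E) line came from an earlier thyroid cancer model. Where the study timed tumor onset, its BRAF(V600E) fish also carried a mutant p53 allele, and for the tumors sequenced here the p53 genotype is not labelled. The samples are labelled adult for both groups, but the sources used here give neither the exact age nor the sex of the fish, nor do they say that the libraries came from different fish. The p-values therefore measure the spread between these libraries, which may be technical.

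Polycomb repressive complex 2 (PRC2) methylates lysine 27 of histone H3, and Polycomb repressive complex 1 (PRC1) ubiquitinates histone H2A and compacts chromatin. Together they keep developmental regulators such as the Hox genes silent in cells that should not use them. In mammals, EZH2 is the PRC2 enzyme of dividing cells and EZH1 is the form that persists in cells that have left the cycle. The comparison asked whether tumors driven by RET and tumors driven by BRAF differ in the expression of these subunits.

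Total counts per library ran from 8662544 to 13596477, and all 9 genes passed the filter on low counts, which left 18453 genes. Normalized read counts are CPM, that is counts on a common scaled library size, given with the SD over 4 CCDC6-RET and 5 BRAF(V600E) libraries. Fold changes are CCDC6-RET over BRAF(V600E) on the log2 scale with their standard error, and adjusted p-values come from edgeR's quasi-likelihood test over all 18453 genes. Thyroid markers were present in every library, with a sum, most of it thyroglobulin (tg), of 14405 to 31815 CPM in CCDC6-RET and 2512 to 21496 CPM in BRAF(V600E) tumors. Of 8 thyroid genes 6 were higher and 0 lower, with a median log2 fold change of 3.20, while tg itself did not pass (0.96 ± 0.55, edgeR adjusted p = 0.141). Markers of other tissues differed widely. The 14 skeletal muscle genes summed to 18.6 to 71.4 CPM in CCDC6-RET and 5677 to 16949 CPM in BRAF(V600E) tumors, with all 14 lower. Of 8 tested keratinocyte genes 6 were lower and 1 was higher, with sums of 1306 to 3702 CPM in CCDC6-RET and 10175 to 25208 CPM in BRAF(V600E) tumors. The CCDC6-RET sum was largely epcam, krt4 and cdh1, with means of 973, 812 and 656 CPM, against 586, 3725 and 346 CPM in BRAF(V600E) tumors. The keratin krt5 averaged 54.1 CPM in CCDC6-RET and 13391 CPM in BRAF(V600E) tumors. The keratin cyt1 was too low to be tested, with 0 counts in CCDC6-RET libraries and 1 to 17 counts in each BRAF(V600E) library. The 7 erythroid genes were all lower, at 77.9 to 835 CPM in CCDC6-RET and 4070 to 14196 CPM in BRAF(V600E) tumors. Of 12 leukocyte genes 10 were lower and 1 was higher, at 62.9 to 185 CPM in CCDC6-RET and 438 to 552 CPM in BRAF(V600E) tumors. How far these other tissues enter any Polycomb value was not tested, and in bulk samples fewer cells of a type and less RNA per cell cannot be told apart.

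Of the 9 Polycomb genes, 5 were higher in CCDC6-RET tumors (phf1, rnf2, suz12b, ezh2 and suz12a), ezh1 was lower, and eed, bmi1a and jarid2b did not pass an adjusted p of 0.05. The 5 higher genes are 55.6% of the 9, where 33.9% of all tested genes were called higher. The single lower gene is 11.1% of the 9, where 38.2% of all tested genes were called lower. In all, 72.1% of tested genes passed, against 66.7% of the 9. For 5 of the 9 genes every library of one group lay above every library of the other, which is 55.6% beside 64.8% over all tested genes. The median log2 fold change of the 9 was 0.61, and that of all tested genes was -0.09. Since most tested genes passed, a call by itself says little about the Polycomb genes. The higher calls of ezh2, suz12a, suz12b and rnf2 depended on how the libraries were scaled, as given after the single genes.

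**Figure D1:**
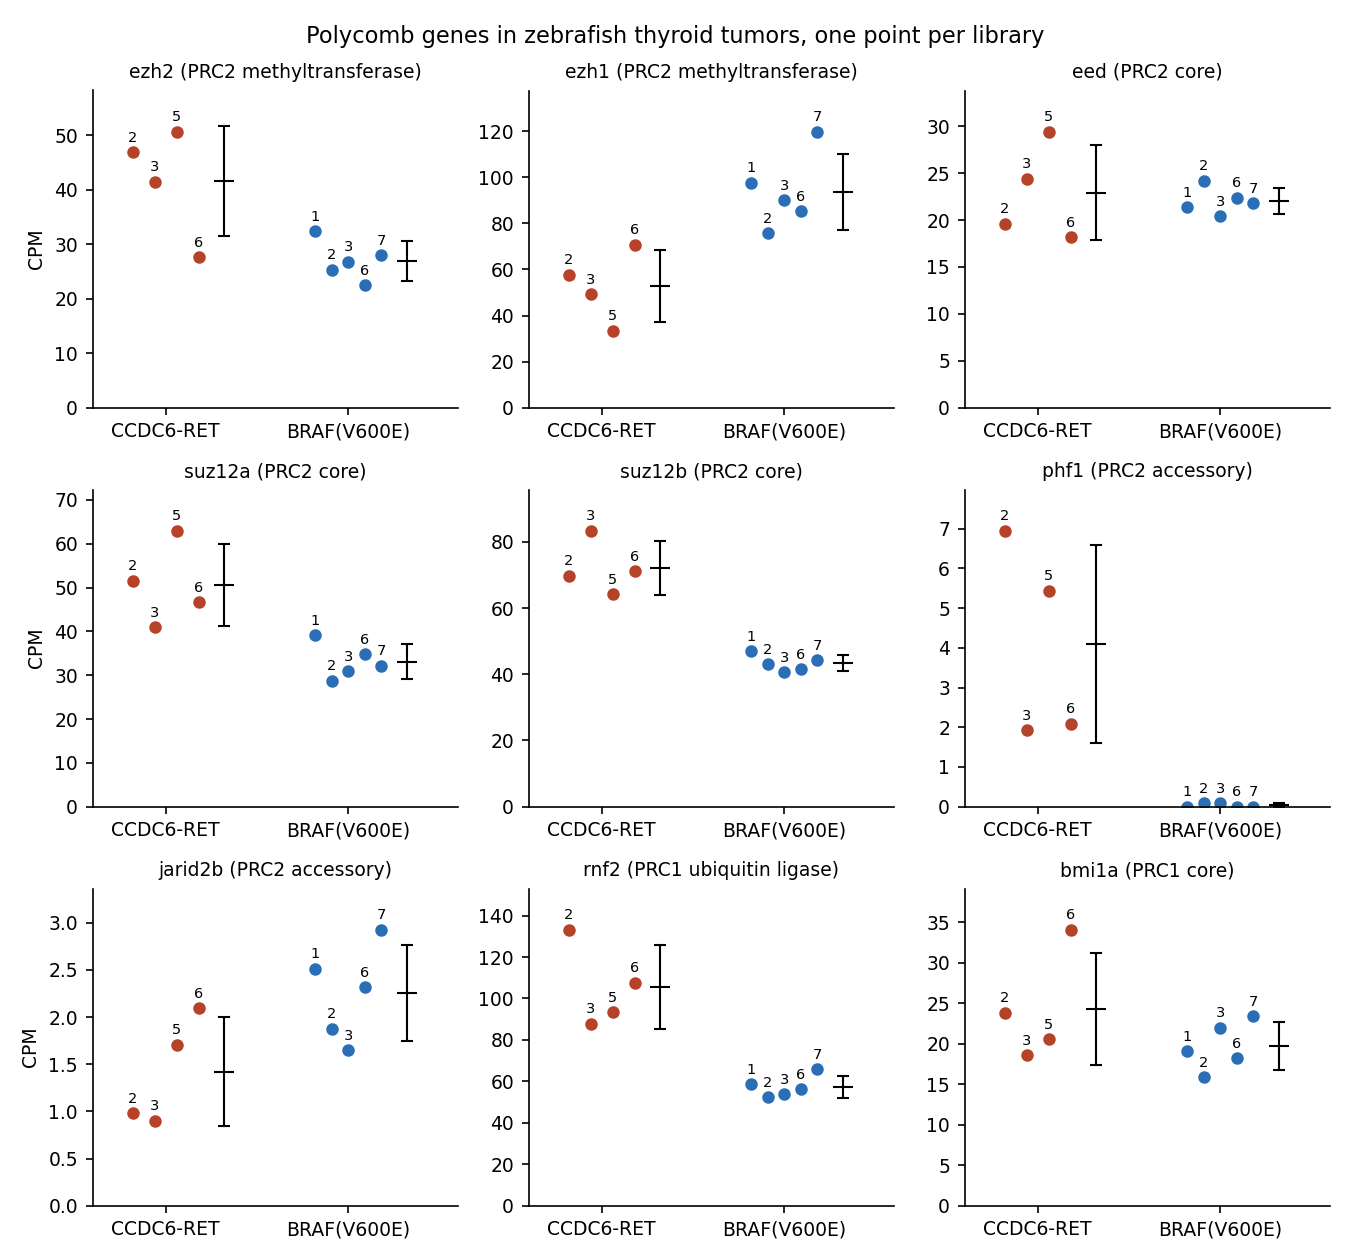
Normalized read counts (CPM, linear axes from 0) of the 9 Polycomb genes, with 1 numbered point per library, CCDC6-RET left of BRAF(V600E), and bars for the mean and SD. The groups do not overlap for ezh1, suz12a, suz12b, phf1 and rnf2, and in ezh2 only CCDC6-RET tumor 6 lies within the BRAF(V600E) range.

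With the standard scaling of the libraries, the catalytic subunits of PRC2 were called in opposite directions. The enzyme ezh2 (ENSDARG00000010571, GRCz10 chromosome 24, 17201102 to 17220037) had 46.9, 41.5, 50.6 and 27.6 CPM in CCDC6-RET tumors 2, 3, 5 and 6. In BRAF(V600E) tumors 1, 2, 3, 6 and 7 it had 32.4, 25.3, 26.8, 22.5 and 27.9 CPM. CCDC6-RET tumors 2, 3 and 5 were above every BRAF(V600E) tumor, and CCDC6-RET tumor 6 lay inside their range. CCDC6-RET tumors averaged 41.6 ± 10.1 CPM (SD, n = 4) and BRAF(V600E) tumors 26.97 ± 3.65 CPM (SD, n = 5). On the log2 scale ezh2 was higher by 0.63 ± 0.19 (edgeR adjusted p = 0.0120). That call was lost with library totals and with ribosomal scaling (edgeR adjusted p = 0.0714 and 0.802). Without CCDC6-RET tumor 6 the log2 fold change was 0.80.

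The second methyltransferase, ezh1 (ENSDARG00000037894, chromosome 3, 36717712 to 36750793), had 57.7, 49.3, 33.5 and 70.6 CPM in CCDC6-RET tumors 2, 3, 5 and 6. It had 97.6, 75.8, 90.1, 85.3 and 119.7 CPM in BRAF(V600E) tumors 1, 2, 3, 6 and 7. Every CCDC6-RET library was below every BRAF(V600E) library, although CCDC6-RET tumor 6 came close to BRAF(V600E) tumor 2. CCDC6-RET tumors averaged 52.8 ± 15.6 CPM and BRAF(V600E) tumors 93.7 ± 16.5 CPM. With this difference ezh1 fell by 0.83 ± 0.22 on the log2 scale (edgeR adjusted p = 0.00658), the only one of the 9 genes to pass in that direction.

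Because the counts of 2 genes in the same library share its depth and scaling, the ratio of ezh2 to ezh1 does not depend on the choice of scaling. That ratio was 0.813, 0.841, 1.51 and 0.391 in CCDC6-RET tumors 2, 3, 5 and 6. In BRAF(V600E) tumors 1, 2, 3, 6 and 7 it was 0.332, 0.333, 0.297, 0.263 and 0.233. The groups did not overlap, and only CCDC6-RET tumor 5 had more reads for ezh2 than for ezh1. The mean log2 ratio differed by 1.46 between the groups, and by 1.16 to 1.81 when any single library was left out. The CCDC6-RET libraries also differed among themselves: tumor 5 had the highest ezh2 and the lowest ezh1 of the 4, tumor 6 had the lowest ezh2 and the highest ezh1, and their ratios spanned a wider range than those of all BRAF(V600E) libraries. Gene lengths were not used, so the ratio does not say which of the pair had more transcripts.

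The noncatalytic core of PRC2 holds suz12, the scaffold of the complex, and eed, which reads the methyl mark and stimulates the enzyme. Zebrafish have a pair of suz12 genes. The gene suz12b (ENSDARG00000098924, chromosome 6, 22060611 to 22073224) had 69.8, 83.4, 64.3 and 71.1 CPM in CCDC6-RET tumors 2, 3, 5 and 6, against 46.9, 43.1, 40.7, 41.6 and 44.3 CPM in BRAF(V600E) tumors 1, 2, 3, 6 and 7. With the standard scaling both groups were well apart, whereas with ribosomal scaling they overlapped. On the standard scale suz12b varied least of the 9 genes within each group. Its coefficient of variation was 11.2% in CCDC6-RET and 5.65% in BRAF(V600E) tumors. CCDC6-RET tumors averaged 72.1 ± 8.05 CPM and BRAF(V600E) tumors 43.3 ± 2.44 CPM, which is higher by 0.74 ± 0.11 on the log2 scale (edgeR adjusted p = 0.000176).

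Its paralog suz12a (ENSDARG00000070256, chromosome 3, 35719884 to 35735532) had 51.6, 41.0, 63.0 and 46.6 CPM in CCDC6-RET tumors 2, 3, 5 and 6. In BRAF(V600E) tumors 1, 2, 3, 6 and 7 it had 39.1, 28.8, 30.9, 34.8 and 32.2 CPM. The groups did not overlap, though CCDC6-RET tumor 3 was only slightly above BRAF(V600E) tumor 1. The log2 fold change was 0.61 ± 0.15 (edgeR adjusted p = 0.00435). The ratio of suz12b to suz12a was 1.35, 2.03, 1.02 and 1.52 in CCDC6-RET tumors 2, 3, 5 and 6. All 5 BRAF(V600E) ratios lay within the CCDC6-RET range, with a difference in the mean log2 ratio of 0.13 that became -0.03 without CCDC6-RET tumor 3.

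For eed (ENSDARG00000099640, chromosome 1, 27690 to 34330) the libraries had 19.6, 24.4, 29.4 and 18.2 CPM in CCDC6-RET tumors 2, 3, 5 and 6, against 21.3, 24.2, 20.4, 22.4 and 21.8 CPM in BRAF(V600E) tumors 1, 2, 3, 6 and 7. All BRAF(V600E) values lay inside the CCDC6-RET range. The log2 fold change was 0.06 ± 0.16 (edgeR adjusted p = 0.767), and its sign turned negative under other scalings. The remaining core subunits that were measured, the histone chaperones rbbp4 and rbb4l, had log2 fold changes of 0.72 ± 0.19 and 0.55 ± 0.11 and both passed. With ribosomal scaling rbbp4 was at 0.18 (edgeR adjusted p = 0.566) and rbb4l at -0.01. Of the 7 PRC2 core genes 5 were higher and 1 was lower, against 0 higher and 2 lower with ribosomal scaling.

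Among the accessory factors that bring PRC2 to chromatin, phf1 had the largest fold change of the 9 genes. This Polycomb-like protein (ENSDARG00000057439, chromosome 16, 45458191 to 45477033) had 92, 15, 67 and 22 counts in CCDC6-RET tumors 2, 3, 5 and 6. It had 0, 1, 1, 0 and 0 counts in BRAF(V600E) tumors 1, 2, 3, 6 and 7. The CCDC6-RET libraries thus held nearly all its reads, at 6.95, 1.93, 5.44 and 2.09 CPM, a low level with a coefficient of variation of 60.8%. From 196 CCDC6-RET counts and 2 BRAF(V600E) counts, pooled over the libraries of each group and divided by their pooled scaled library sizes, the ratio was 138, with an exact 95% interval of 37.7 to 1148 that covers counting error only. The fitted log2 fold change was 6.58 ± 0.76 (edgeR adjusted p = 4.65e-05), and its size depends on the prior count. The gene could pass the filter on low counts only through its CCDC6-RET values. Its human counterpart is also in the signature that the study derived from these same libraries, so the direction is not independent evidence.

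The accessory factor jarid2b (ENSDARG00000062268, chromosome 19, 26386749 to 26572618), which binds PRC2 and modulates its activity, had few reads. It had 0.982, 0.899, 1.71 and 2.09 CPM in CCDC6-RET tumors 2, 3, 5 and 6, from 7 to 22 counts. In BRAF(V600E) tumors 1, 2, 3, 6 and 7 it had 2.51, 1.88, 1.65, 2.32 and 2.92 CPM, from 19 to 40 counts. The ranges overlapped, and the log2 difference of -0.66 ± 0.34 did not pass (edgeR adjusted p = 0.104). It did pass without CCDC6-RET tumor 6 (edgeR adjusted p = 0.0423). Its paralog jarid2a averaged 8.28 ± 4.14 CPM in CCDC6-RET and 18.0 ± 2.37 CPM in BRAF(V600E) tumors, and fell by 1.11 ± 0.32 on the log2 scale (edgeR adjusted p = 0.0106). The ratio of jarid2b to jarid2a was 0.0718 to 0.297 in CCDC6-RET libraries, against 0.0896 to 0.207 in BRAF(V600E) libraries, and these ranges overlapped.

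The other Polycomb-like genes were higher as well. The log2 fold change was 1.86 ± 0.23 for phf19, with 36.7 ± 9.93 CPM in CCDC6-RET and 10.1 ± 2.44 CPM in BRAF(V600E) tumors (edgeR adjusted p = 7.23e-05). For mtf2 it was 1.54 ± 0.19, with 19.6 ± 3.78 CPM in CCDC6-RET and 6.75 ± 0.997 CPM in BRAF(V600E) tumors (edgeR adjusted p = 6.26e-05). The groups overlapped for neither gene, and unlike phf1 both were read in every library. Of the 6 accessory genes 4 were higher and jarid2a was lower, and with ribosomal scaling 4 were higher and 2 lower.

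The ubiquitin ligase subunit of PRC1 is rnf2, known in mammals as RING1B, and bmi1a is one of the Polycomb group ring finger partners that define the forms of the complex. The ligase rnf2 (ENSDARG00000010381, chromosome 2, 23695803 to 23706282) had 133.1, 87.7, 93.3 and 107.6 CPM in CCDC6-RET tumors 2, 3, 5 and 6. In BRAF(V600E) tumors 1, 2, 3, 6 and 7 it had 58.7, 52.3, 53.9, 56.1 and 65.9 CPM. All 4 CCDC6-RET libraries were above all 5 BRAF(V600E) libraries, with CCDC6-RET tumor 2 highest. CCDC6-RET tumors averaged 105 ± 20.3 CPM and BRAF(V600E) tumors 57.4 ± 5.34 CPM, which is higher by 0.88 ± 0.14 on the log2 scale (edgeR adjusted p = 0.000336).

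For bmi1a (ENSDARG00000006010, chromosome 24, 17115582 to 17122816) the libraries had 23.9, 18.6, 20.6 and 34.1 CPM in CCDC6-RET tumors 2, 3, 5 and 6, against 19.1, 15.9, 22.0, 18.2 and 23.4 CPM in BRAF(V600E) tumors 1, 2, 3, 6 and 7. CCDC6-RET tumors 2 and 6 were above all BRAF(V600E) tumors, by little in tumor 2, and tumors 3 and 5 lay among them. The log2 difference of 0.30 ± 0.20 did not pass (edgeR adjusted p = 0.203). Its paralog bmi1b passed with 0.48 ± 0.17 (edgeR adjusted p = 0.0286), a call that was lost when any one of 6 libraries was left out, and ribosomal scaling gave -0.12. The ratio of bmi1b to bmi1a was 0.747 to 1.37 in CCDC6-RET libraries, against 0.747 to 0.944 in BRAF(V600E) libraries, and these ranges overlapped.

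By coefficient of variation, 8 of the 9 genes spread more between CCDC6-RET than between BRAF(V600E) libraries. The exception was phf1, with only 2 counts in BRAF(V600E) tumors. How many of all tested genes did so was not counted, so this is not shown to be particular to the Polycomb genes. By SD, ezh1 spread slightly less in CCDC6-RET than in BRAF(V600E) tumors (15.6 against 16.5 CPM). Over the 8 genes other than phf1 the coefficient of variation was 11.2% (suz12b) to 40.7% (jarid2b) in CCDC6-RET tumors, against 5.65% (suz12b) to 22.5% (jarid2b) in BRAF(V600E) tumors. Which CCDC6-RET library was highest differed by gene. Tumor 5 was highest for ezh2, eed and suz12a, tumor 2 for rnf2 and phf1, tumor 3 for suz12b, and tumor 6 for ezh1, bmi1a and jarid2b. The closest pairs of the 9, by root mean square difference of their centred log2 CPM over the 9 libraries, were suz12b with rnf2 (0.227) and ezh2 with suz12a (0.229), while ezh1 and ezh2 were 0.871 apart. Part of any such likeness is the shared difference between the groups.

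**Figure D2:**
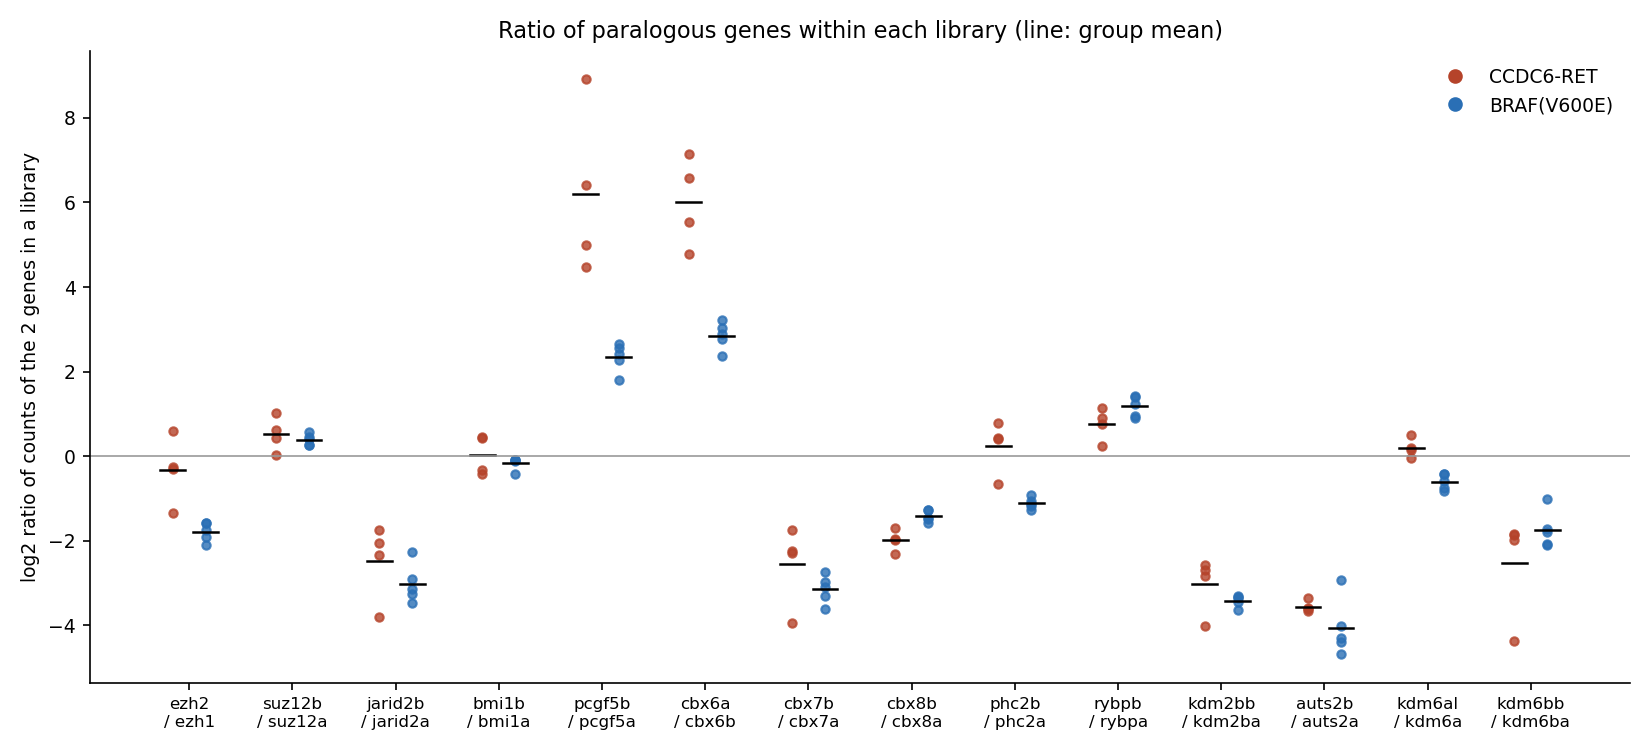
The log2 ratio of counts of paralogous Polycomb and demethylase genes within each library, with 1 point per library, CCDC6-RET left of BRAF(V600E), and lines for the group means. The groups do not overlap for 6 of 14 pairs, among them ezh2 over ezh1, and overlap for suz12b over suz12a, jarid2b over jarid2a and bmi1b over bmi1a. Of the 14 pairs, 10 were added after seeing the data. How often ratios of other gene pairs do not overlap was not counted, and single genes do not overlap in 64.8% of all tested genes. The count of 6 is therefore not shown to be particular to these pairs.

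The size of the calls rested on the scaling of the libraries. Cytosolic ribosomal protein genes took 11.7% ± 1.57 of the counts in CCDC6-RET and 8.77% ± 0.260 in BRAF(V600E) libraries. When the libraries were scaled on these genes, the median log2 fold change of all tested genes was -0.66, against -0.09 with the standard scaling, and all values moved down together. On that scale 3024 genes were called higher and 8957 lower, against 6255 higher and 7043 lower. Of the 9 Polycomb genes only phf1 was then called higher, and ezh1, jarid2b and eed were called lower. The log2 fold changes of ezh2, suz12a, suz12b and rnf2 stayed positive at 0.07, 0.05, 0.15 and 0.33 without passing (edgeR adjusted p = 0.802, 0.849, 0.360 and 0.217), and bmi1a turned to -0.27. With library totals suz12a, suz12b and rnf2 still passed (edgeR adjusted p = 0.0417, 0.00140 and 0.00365), and ezh2 did not. With size factors in edgeR they passed, as did ezh2 (edgeR adjusted p = 0.0237).

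A change of scaling shifts nearly all genes by the same amount, so values relative to the median of all tested genes stay in place by construction and are given only to place each gene among the others. Relative to that median, ezh2 was at 0.71 with the standard scaling and 0.73 with ribosomal scaling, suz12a at 0.70 and 0.71, suz12b at 0.82 and 0.80, and rnf2 at 0.97 and 0.99. On this relative scale ezh1 was at -0.74 and -0.75, and eed was at 0.14 and 0.13. Whether the 4 genes were higher in absolute terms therefore cannot be told apart from the choice of scaling. The calls of ezh1 and phf1 stayed under every scaling tried, but this was largely fixed in advance. Each other scaling moved values down, which could hardly undo the lower call of ezh1. For phf1 the shift was small beside its log2 fold change.

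**Figure D3:**
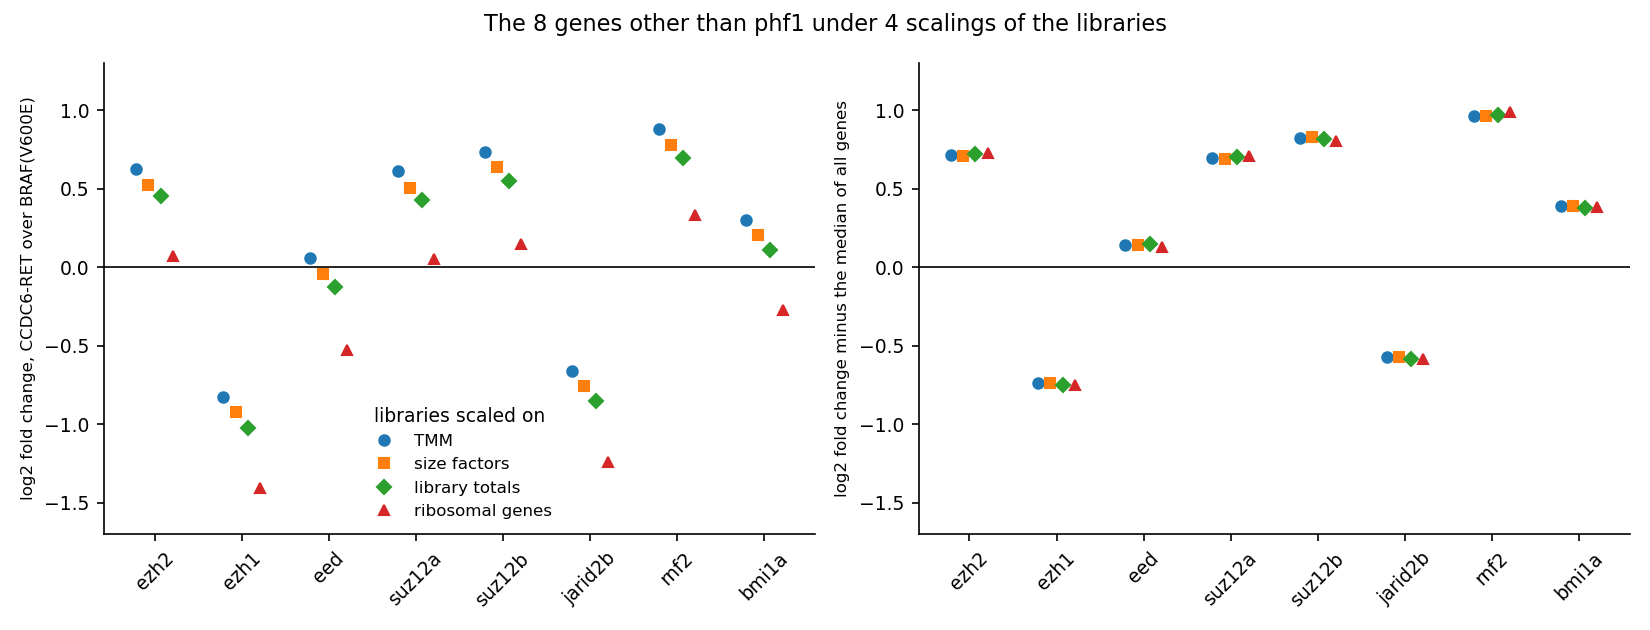
Log2 fold changes, CCDC6-RET over BRAF(V600E), of 8 Polycomb genes under 4 scalings of the libraries (left, phf1 left out for its size), and the same values minus the median of all tested genes (right). On the left the values slide down with ribosomal scaling, where eed and bmi1a fall below 0, and on the right each gene stays in place by construction.

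Genes of the cell cycle were measured in the same libraries. Of 30 proliferation genes 29 were higher in CCDC6-RET tumors, with a median log2 fold change of 2.67 beside 0.61 for the 9 Polycomb genes, and 25 were called higher with ribosomal scaling. The mitotic kinase gene nek2 (4.43 ± 0.31) and rrm2 (4.27 ± 0.32), a subunit of ribonucleotide reductase, had the largest rises. A second row named rrm2 was the only one to fall, by 4.51 ± 0.53. The summed level of the list was 3385, 1892, 3461 and 1920 CPM in CCDC6-RET tumors 2, 3, 5 and 6, against 849, 720, 475, 681 and 490 CPM in BRAF(V600E) tumors 1, 2, 3, 6 and 7.

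CCDC6-RET tumors 2 and 5, with the highest sums, also had the highest ezh2 and suz12a, and CCDC6-RET tumor 6, with a sum near that of tumor 3, had the lowest ezh2 of the 4. For suz12b the order was different, since tumors 2 and 5 had its lowest values among CCDC6-RET libraries. The level of ezh1 was lowest in tumor 5 (33.5 CPM) and highest in tumor 6 (70.6 CPM). It was higher in tumor 2 (57.7 CPM) than in tumor 3 (49.3 CPM), although tumor 2 had the higher sum. The part of proliferation in the Polycomb values was not tested.

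**Figure D4:**
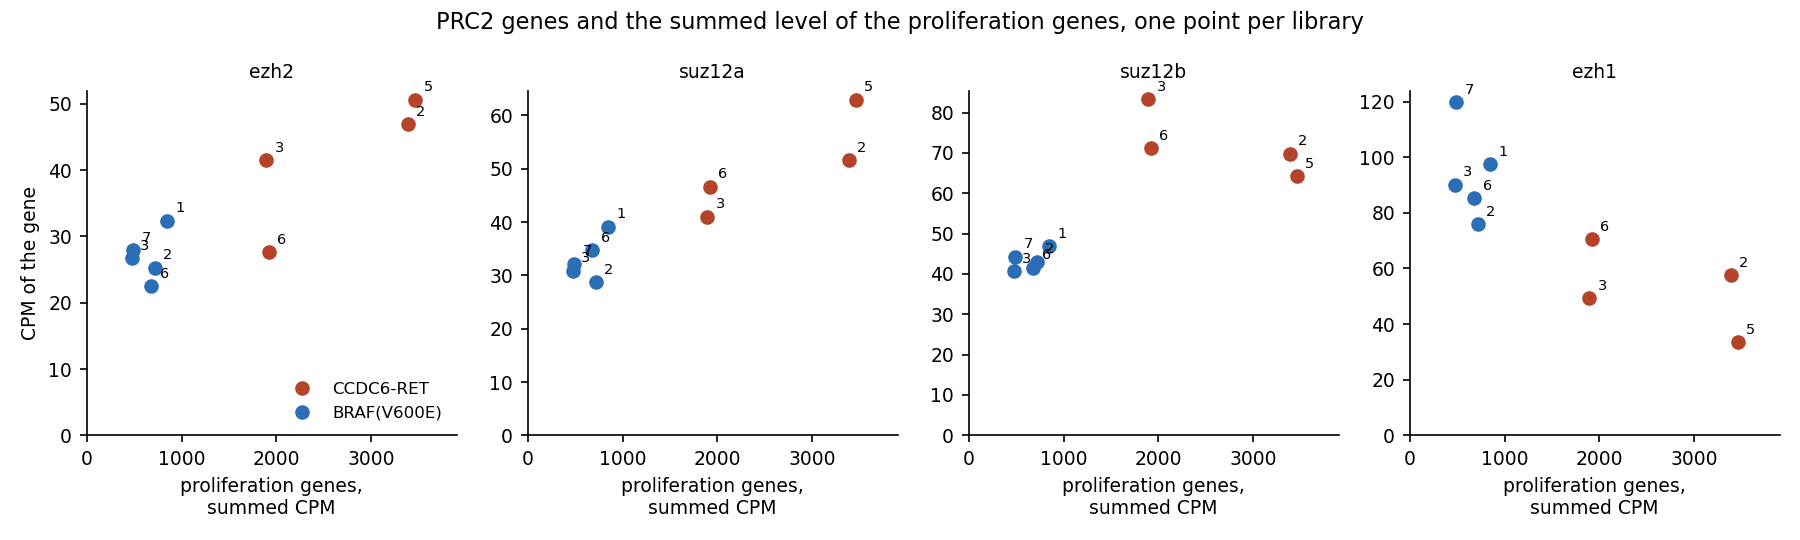
CPM of ezh2, suz12a, suz12b and ezh1 (vertical, from 0) against the summed CPM of 30 proliferation genes (horizontal) in the 9 libraries, labelled by tumor number. CCDC6-RET libraries lie at 1892 to 3461 CPM on the horizontal axis and BRAF(V600E) libraries at 475 to 849 CPM, and within CCDC6-RET suz12b does not follow the order of ezh2.

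The wider Polycomb lists held 54 tested genes, of which 31 were higher (57.4%), 12 were lower (22.2%) and 11 did not pass. Their median log2 fold change was 0.55. Over all tested genes 33.9% were called higher and 38.2% lower, and the counts by complex below are to be read beside these shares. With ribosomal scaling 12 were higher and 20 lower, where 3024 of all 18453 tested genes were higher and 8957 lower. The median of the 54 was then 0.00, again above the median of all tested genes on that scale. Of the 45 genes beside the 9, 26 were higher and 11 lower. PRC2 had 9 higher and 2 lower among 13 genes, and 4 higher and 4 lower with ribosomal scaling. PRC1 had 20 higher and 7 lower among 35, and 7 higher and 12 lower with ribosomal scaling.

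In the PRC1 core 4 of 7 genes were higher and 1 was lower, against 0 higher and 2 lower with ribosomal scaling. The pair pcgf5b and pcgf5a, partners of the ligase in noncanonical PRC1, went in opposite directions. The log2 fold change was 0.96 ± 0.14 for pcgf5b and -2.18 ± 0.56 for pcgf5a. The ratio of pcgf5b to pcgf5a was 22.2 to 481 in CCDC6-RET libraries, against 3.50 to 6.25 in BRAF(V600E) libraries. In CCDC6-RET libraries pcgf5a had only 1 to 32 counts, and the ratio of 481, in tumor 3, rests on 1 count of pcgf5a. The partner pcgf1 was higher, at 0.65 ± 0.20. With ribosomal scaling pcgf5b and pcgf1 no longer passed, and pcgf5a did.

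Canonical PRC1 carries a chromobox protein that reads the PRC2 mark and a polyhomeotic protein that links complexes together. Of these 15 genes 10 were higher and 2 lower, with a median log2 fold change of 1.07, and with ribosomal scaling 6 were higher and 4 lower. The largest rises were in scml4 (1.87 ± 0.43), the polyhomeotic gene phc2b (1.82 ± 0.12) and the chromobox gene cbx6a (1.69 ± 0.14). The lower genes were both chromobox 7 paralogs, with -1.65 ± 0.53 for cbx7a and -1.41 ± 0.32 for cbx7b. The cbx7a values ranged from 3.82 to 36.7 CPM in CCDC6-RET and from 41.6 to 72.8 CPM in BRAF(V600E) tumors. The call for cbx7a was lost without CCDC6-RET tumor 2 (edgeR adjusted p = 0.0528).

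Of 13 noncanonical PRC1 genes 6 were higher and 4 lower, with a median of 0.07. With library totals the numbers were 3 higher and 5 lower, and with ribosomal scaling 1 higher and 6 lower, with a median of -0.48. The gene of the repressor e2f6, listed under a clone name, rose by 1.81 ± 0.20, and l3mbtl2 rose by 0.82 ± 0.18, a call that ribosomal scaling removed. The corepressors bcorl1 and bcor and the gene kdm2ba fell by 1.61 ± 0.22, 1.19 ± 0.39 and 1.09 ± 0.27 on the log2 scale. The groups overlapped for none of these 3. The gene auts2b passed with 0.96 ± 0.37 (edgeR adjusted p = 0.0397) but failed when any one of 7 libraries was left out.

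The Polycomb deubiquitinase PR-DUB removes the mark that PRC1 writes. Its catalytic subunit bap1 was higher, at 31.6 ± 2.52 CPM in CCDC6-RET and 14.5 ± 0.567 CPM in BRAF(V600E) tumors (log2 fold change 1.12 ± 0.11, edgeR adjusted p = 2.03e-05), and the partner foxk1 rose by 1.12 ± 0.18. The partners mbd5, asxl2 and mbd6 fell by 1.66 ± 0.31, 1.59 ± 0.32 and 1.06 ± 0.31. All 5 changes were without overlap of the groups. With ribosomal scaling foxk1 no longer passed, and 1 of the 6 genes was higher and 4 were lower.

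With the standard scaling, the demethylases that erase the PRC2 mark did not move as 1 group. The gene kdm6bb was lower, at 40.1 ± 18.2 CPM in CCDC6-RET and 91.4 ± 20.2 CPM in BRAF(V600E) tumors (log2 fold change -1.18 ± 0.30, edgeR adjusted p = 0.00587). The gene kdm6a fell by 0.38 ± 0.14 (edgeR adjusted p = 0.0303), a call lost without CCDC6-RET tumor 3, 5 or 6, and its copy kdm6al passed with 0.44 ± 0.13 (edgeR adjusted p = 0.0107), which became -0.14 with ribosomal scaling. The ratio of kdm6al to kdm6a was 0.976 to 1.41 in CCDC6-RET libraries, against 0.562 to 0.749 in BRAF(V600E) libraries, and does not depend on scaling. For kdm6ba the log2 fold change was -0.38 ± 0.30 (edgeR adjusted p = 0.282), and it passed without CCDC6-RET tumor 3 and with ribosomal scaling. On that scale 0 of the 4 demethylase genes were higher and 3 were lower, where 8957 of all 18453 tested genes were lower.

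**Figure D5:**
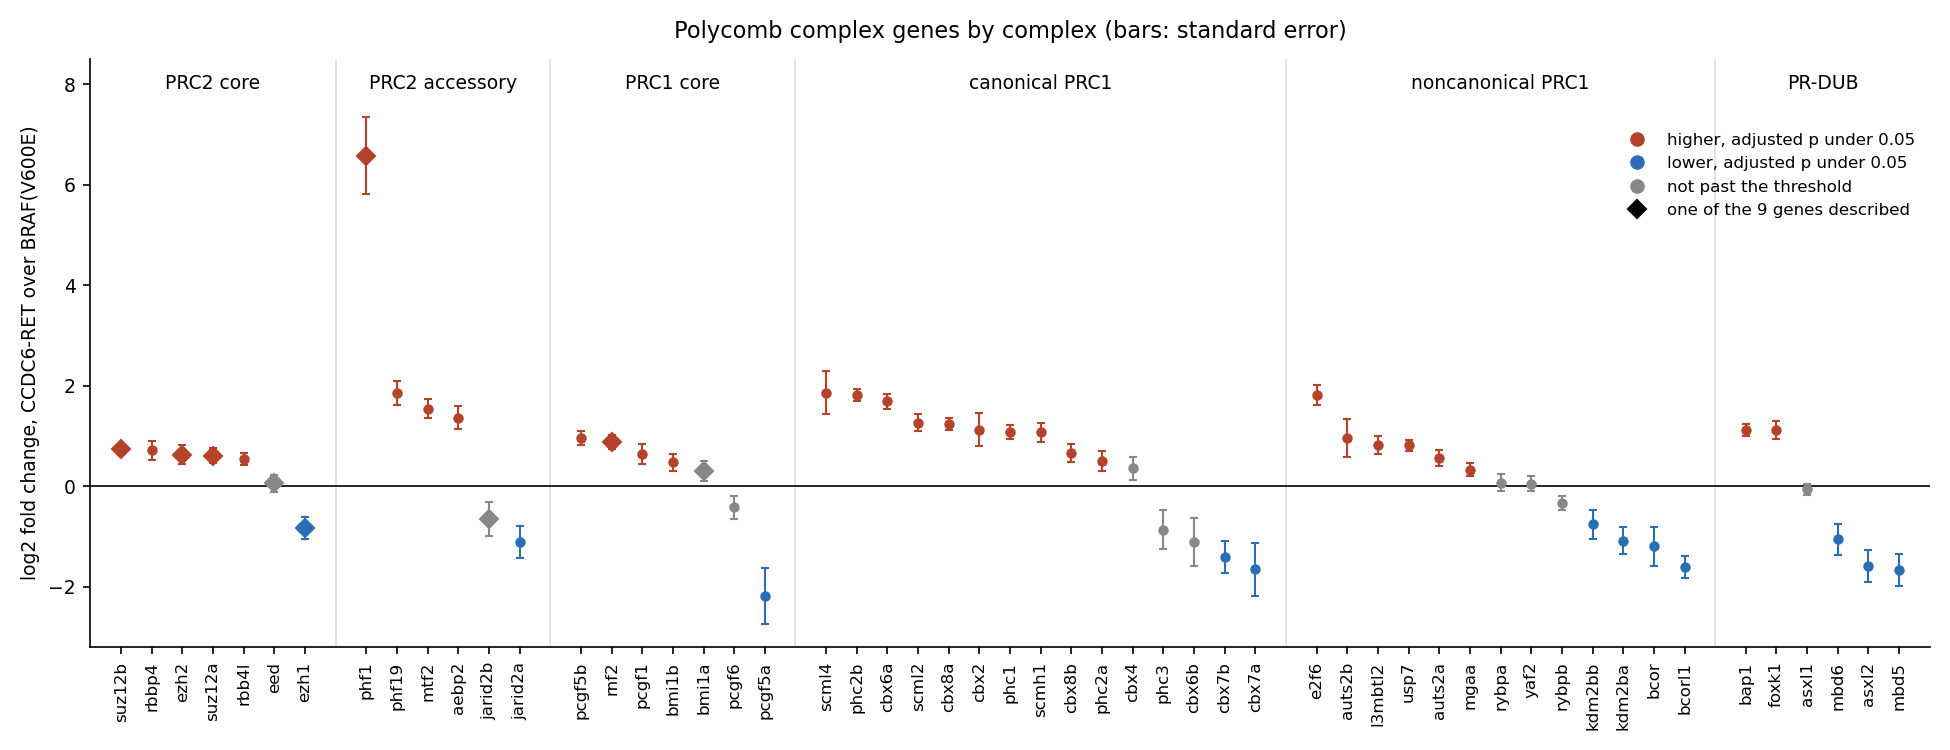
Log2 fold change, CCDC6-RET over BRAF(V600E), with its standard error for 54 Polycomb genes by complex, diamonds marking the 9 genes described one by one. With the scaling drawn, 31 genes are higher and 12 lower, beside 33.9% higher and 38.2% lower over all tested genes. With ribosomal scaling 12 are higher and 20 lower, beside 3024 higher and 8957 lower of all 18453 tested genes.

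Hox genes are the textbook targets of Polycomb repression. The table held 41 Hox genes, and the filter on low counts left 13, with 3 higher and 10 lower. Most of the 13 had few reads in the lower group and could pass the filter only through the other one, so that these were called was largely fixed by the filter. With no filter 5 of the 41 were higher and 17 lower. The higher ones were the neighbours hoxc3a (9.20 ± 0.45), hoxc4a (8.01 ± 0.53) and hoxc5a (6.23 ± 1.08), whose CCDC6-RET means were 284, 35.9 and 6.78 CPM, against 0.476, 0.124 and 0.0775 CPM in BRAF(V600E) tumors. The gene models of hoxc3a and hoxc4a overlap, so their reads may be shared. The study's own signature was chosen on these same libraries, so it is not independent evidence for the higher Hox genes. The largest falls were in hoxa13b (-5.14 ± 0.92) and hoxb3a (-4.01 ± 0.83). With ribosomal scaling the numbers were again 3 higher and 10 lower. This was largely fixed in advance, since the shift of scaling was small beside the log2 fold changes of these genes.

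Over all tested genes with ordinary symbols, the gene with the profile most like each Polycomb gene was sought by the same root mean square difference over the 9 libraries. It was fubp1 for ezh2 (0.103) and ncoa4 for ezh1 (0.127). For suz12b it was kdm1a (0.0636), for suz12a rhbdd1 (0.0702), and for eed abhd10b (0.0785). It was ccdc94 for rnf2 (0.0962), spna2 for bmi1a (0.141), brdt for jarid2b (0.188) and osgepl1 for phf1 (0.303). The next in order were ruvbl1 and drg1 for ezh2, nfatc3a and hivep2a for ezh1, tial1 and bc2 for suz12b, commd3 and cbx5 for suz12a, and rnaseh1 and ehmt1b for eed. They were ift52 and nhej1 for rnf2, eri1 and mtss1 for bmi1a, mxd4 and cgnl1 for jarid2b, and vgf and adat3 for phf1. The largest distances, for phf1 and jarid2b, belong to the genes with the fewest counts. These distances were not divided by each gene's own spread, a root mean square of 2.16 about its mean for phf1 and 0.19 for eed. They therefore do not rank how close the match was from gene to gene.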

How the data were processed

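A single deposited table of 27158 genes was used. The authors aligned the reads with STAR, for which the submitters' processing notes give version 2.3 and the build GRCz10, and deposited raw counts for every gene. For the counting step no tool or strand setting is given in the sources used here. None of the 9 gene models overlaps another gene. The deposited size-factor normalized values (signal) and the authors' DESeq2 log2 fold changes, test statistic (a score) and p-values, raw and adjusted, were not used.

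Counts were fitted with edgeR 4.0.16 (R 4.3.3) with filterByExpr (minimum count 10), TMM scaling and robust two-sided quasi-likelihood tests, with no covariate. A gene was called at a Benjamini-Hochberg adjusted p below 0.05, and a standard error is the log2 fold change divided by the root of F. The fit was tested on simulated counts with 200 changed genes, in equal numbers up and down. Far more genes were called here, so that test does not cover the scaling of these libraries. Log2 CPM for likeness used a prior count of 2. Alternatives were other scalings, DESeq2 1.42.0, limma-voom (limma 3.58.1), no filter, no robust shrinkage, each library left out, and a replicate block.

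The 9 genes and the lists (170 entries, 12 not matched) were chosen with earlier results of these data known. Named genes were the 9, their paralogs, the 3 largest called rises and falls of each Polycomb list, all tested demethylases and H3K9 methyltransferases, up to 2 examples from other lists in each direction, and the 3 nearest genes of each of the 9. The third Hox gene that rose was named after its value was seen. Of 14 paralog pairs, 10 were added after seeing the data, as was the comparison with the median of all genes.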

Additional observations from a re-analysis of the deposited data

Results flagged for a closer look

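Within the 5 BRAF(V600E) libraries, the log2 ratio of bmi1b to bmi1a counts was -0.42 in tumor 3, while the other 4 libraries lay between -0.13 and -0.08. The gap was 0.87 of the group's whole range. In all 26 groups of values were examined in this way, and chance marks about 5% of such groups. In CCDC6-RET libraries the same ratio ranged from -0.42 to 0.46.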

How the results depend on the processing

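Leaving out each library in turn gave 6 to 7 Polycomb genes called, 5 higher in each case and 1 to 2 lower (2 without CCDC6-RET replicate 6). Of all tested genes 67.4% to 72.4% were called in those fits. For 5 to 6 of the 9 the groups did not overlap, beside 64.8% of all tested genes with every library kept. With ribosomal scaling 1 of the 9 was higher and 3 were lower, where 3024 of all 18453 tested genes were higher and 8957 lower. On that scale 3 of the 9 did not overlap between groups, and the share over all tested genes was not counted. The genes without overlap were then ezh1, phf1 and jarid2b, while suz12a, suz12b and rnf2 overlapped. With library totals suz12a overlapped as well. Library totals alone and DESeq2 each gave 2 lower, the added gene being jarid2b (adjusted p = 0.0496 and 0.0410), and ezh2 did not pass with library totals (edgeR adjusted p = 0.0714). The log2 fold change of eed ranged from -0.082 (without CCDC6-RET replicate 5) to 0.17 with single libraries left out, and was -0.046 with size factors in edgeR, -0.048 with DESeq2, -0.13 with library totals, -0.53 with ribosomal scaling, -0.11 with the block and -0.10 in the same 6 libraries without it. With ribosomal scaling negative values also appeared for bmi1a (-0.27), bmi1b (-0.12), rbb4l (-0.014), kdm6al (-0.14), setdb1a (-0.0063), setdb1b (-0.20), ehmt1a (-0.10), ehmt1b (-0.47) and ehmt2 (-0.18), and ehmt1b was at -0.0745 with library totals. The suz12b to suz12a difference ranged from -0.034 to 0.30 with single libraries left out. Over the named Polycomb, demethylase and H3K9 genes, 694 of the values under alternatives kept direction and call. With the direction kept, 75 lost the call and 6 gained it. A further 17 changed sign, some of them with a change of call, and are not in the counts of calls lost or gained. Replicate numbers 2, 3 and 6 occur in both groups, and the labels do not say what the numbers mean. Same-numbered libraries did not deviate together over all tested genes (correlations of 0.03, 0.01 and -0.04). Such correlations cannot show whether these libraries shared a batch. With the number as a replicate block in these 6 libraries, 3 of the 9 were called, 3 higher and 0 lower. With the block ezh1, ezh2 and suz12a did not pass (edgeR adjusted p = 0.0732, 0.0572 and 0.0531). Without it they passed in the same libraries (edgeR adjusted p = 0.0372, 0.0475 and 0.0168). Over all tested genes 10260 were called with the block (56.2%), against 11522 without it in the same libraries (63.1%). Depth limits phf1 and jarid2b most, the genes with the fewest counts. The causes of these shifts were not tested.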

Other observations

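Enzymes of another repressive mark, methylation of lysine 9 of histone H3, were also measured. Of 6 tested genes 5 were higher in CCDC6-RET tumors and none was lower, beside 33.9% higher and 38.2% lower over all tested genes. The heterochromatin methyltransferase suv39h1b had 30.0 ± 4.15 CPM in CCDC6-RET and 9.95 ± 2.14 CPM in BRAF(V600E) tumors (log2 fold change 1.59 ± 0.19, edgeR adjusted p = 5.05e-05) and passed under each alternative that was tried. The other changes were smaller, at 0.55 for setdb1a, 0.46 for ehmt1a, 0.37 for setdb1b and 0.37 for ehmt2, and all 4 turned negative with ribosomal scaling. The call for ehmt2 was lost when any one of 7 libraries was left out. For ehmt1b the log2 fold change was 0.11 (edgeR adjusted p = 0.431). Trithorax genes, which oppose Polycomb, had 5 of 14 higher and 5 lower, close to the shares over all tested genes. Their median log2 fold change was -0.01. With size factors or library totals 4 were higher and 6 lower, and with ribosomal scaling 1 was higher and 8 lower, with a median of -0.57.

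Neighbouring genes were looked up for the 9, and those named here were chosen after their values were seen. On chromosome 24 ezh2 and bmi1a lie 78285 bases apart. The gene cul1b starts 110 bases from ezh2 and was higher by 0.94 on the log2 scale (edgeR adjusted p = 0.000744), and commd3 lies 357 bases from bmi1a, with 0.68 (edgeR adjusted p = 0.00188). Beside suz12b, utp6 at 171 bases did not pass (0.05, edgeR adjusted p = 0.804), and atad5b at 234 bases did (0.52, edgeR adjusted p = 0.0462). On chromosome 16 syngap1b, 80094 bases after phf1, had 3845 counts in CCDC6-RET and 45 in BRAF(V600E) libraries, and was higher by 6.91 on the log2 scale (edgeR adjusted p = 4.22e-07), and rgl2, 8396 bases before phf1, was at 1.27 (edgeR adjusted p = 0.00748).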
